A study of Mus musculus with 18 samples.

Results

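Intermediate filament genes of glia, neurons and the nuclear lamina were followed across cultured neural stem cells (NSCs) and the astrocytes made from them. The set was Gfap, Vim, Nes, Synm, Nefl, Nefm, Ina, Lmna, Lmnb1 and Lmnb2, 10 of the 27997 genes in the table, and all 10 were found. It was picked by name and not by a rule on measured values, though earlier results of these data were known. Bulk RNA was sequenced from 3 mouse lines, each as NSCs and as astrocytes, with 3 libraries for each of the 6 groups and 18 in all. The tdTomato line (genotype DNGR-1 +/- Tom+/-) and the EYFP line (DNGR-1 +/- EYFP+/-) were grown from reporter-positive cells sorted from spinal cord neurospheres. In both, Cre is made from the locus of Clec9a, the gene of the receptor DNGR-1, and the reporter stays on in every descendant of a cell that has made Cre, so these are called traced. The hippocampal line carries the label DNGR-1+/+, and the series text traces it to mice with GlastCre, a floxed Huwe allele and an EYFP reporter; whether that allele was recombined is not given in the sources used here. NSCs grew on laminin with EGF and bFGF and were taken on day 4. Astrocytes were made with BMP4 at 20 ng/ml and taken on day 6. The paper's methods list no EGF or bFGF in that medium, so the fates differ in these factors as well as in BMP4. The replicates of a line were its passages 10 to 12, so p-values measure the spread between passages of a line and not between animals. Traced and hippocampal libraries also differ in region, genotype and line, and these cannot be told apart. The comparisons ask how far the balance between filament partners differs between fates and between origins.

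Intermediate filaments are ropes of coiled-coil proteins that polymerise only with suitable partners. Vimentin (Vim) and GFAP (Gfap) can each form filaments alone, whereas nestin (Nes) and synemin (Synm) need a partner such as vimentin, and immature neural cells are known for vimentin with nestin, astrocytes for GFAP. The neurofilament proteins (Nefl, Nefm) and α-internexin (Ina) build the filaments of neurons. Lamins line the inside of the nuclear envelope: Lmna gives lamins A and C by splicing, which gene-level values cannot separate, and Lmnb1 and Lmnb2 give the B-type lamins.

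All values are deposited log2 values relative to library size; no counts came with them, and depth is unknown. Proliferation markers set the fates apart: the summed level of 8 of 8 listed genes lay between 15.06 and 15.43 in NSC libraries and between 11.62 and 11.87 in astrocyte libraries (log2). The summed level of the 12 astrocyte markers found, Gfap not among them, was 15.64 to 16.66 in NSCs and 17.25 to 17.54 in astrocytes. The neural stem cell list did not follow the labels in every line. In the tdTomato line its sum was 15.53 to 15.70 in NSCs and 15.53 to 15.60 in astrocytes. In the other lines the NSC sums, at 15.99 to 16.12, lay above the astrocyte sums, at 15.36 to 15.78. Of its 9 genes 5 were higher and 2 lower in astrocytes over all lines. That is a share near the 81.9% of all genes tested that passed the threshold (42.1% higher and 39.8% lower). Of 7 listed microglial genes 6 were found and 1, Tmem119, passed the filter, while Ptprc, Aif1 and Itgam lay near the floor, below -1 on the log2 scale in every library. Bulk values cannot tell fewer cells of a type from less RNA per cell.

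The cytoplasmic filament RNA of the NSCs was mostly Vim and Nes, and that of the astrocytes mostly Vim and Gfap. As shares of the summed level per kb of exon over the 7 cytoplasmic genes, Vim made up 72.3% ± 1.7 in tdTomato, 76.5% ± 1.1 in EYFP and 75.6% ± 0.95 in hippocampal NSCs (SD, n = 3 each). Nes made up 26.1% ± 1.7, 21.7% ± 1.2 and 22.4% ± 1.0 of the same sum, and Gfap only 1.07% ± 0.076, 1.37% ± 0.21 and 1.41% ± 0.11. In the astrocytes the share of Gfap was 38.3% ± 6.9, 46.3% ± 6.9 and 34.4% ± 5.0, and that of Nes was 1.52% ± 0.27, 1.08% ± 0.12 and 3.33% ± 0.11. Vim stayed the largest share of every astrocyte group mean, at 59.9% ± 6.7, 52.4% ± 6.8 and 61.9% ± 5.0, although Gfap passed it in 1 EYFP library, where Gfap made up 52.3%. With coding transcript lengths Gfap made up at most 45.0% there and Vim at least 54.4%. The ranges of Vim and Gfap shares overlapped among the 3 astrocyte groups. Synm, Ina, Nefm and Nefl were minor parts throughout, with Synm between 0.098% and 0.28% of the sum as group means and Ina between 0.047% and 0.42%.

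The sum itself also moved, and most in the hippocampal line. On the linear scale per kb it was 11819 ± 300.1 in tdTomato NSCs, 11034 ± 492 in EYFP NSCs and 10384 ± 465 in hippocampal NSCs. The astrocytes had 22770.2 ± 2522, 27077 ± 2836 and 60088 ± 6068 in the same order (SD, n = 3). A Nes share in hippocampal astrocytes of 3.33% was thus part of a far larger sum, since Vim and Gfap rose in that line while Nes did not pass the test. The shares depend on the length used: with the longest coding transcript in place of all exons, the Nes share of NSCs was 11.9% to 14.7% and the Vim share 84.1% to 86.7% as group means.

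**Figure D1:**
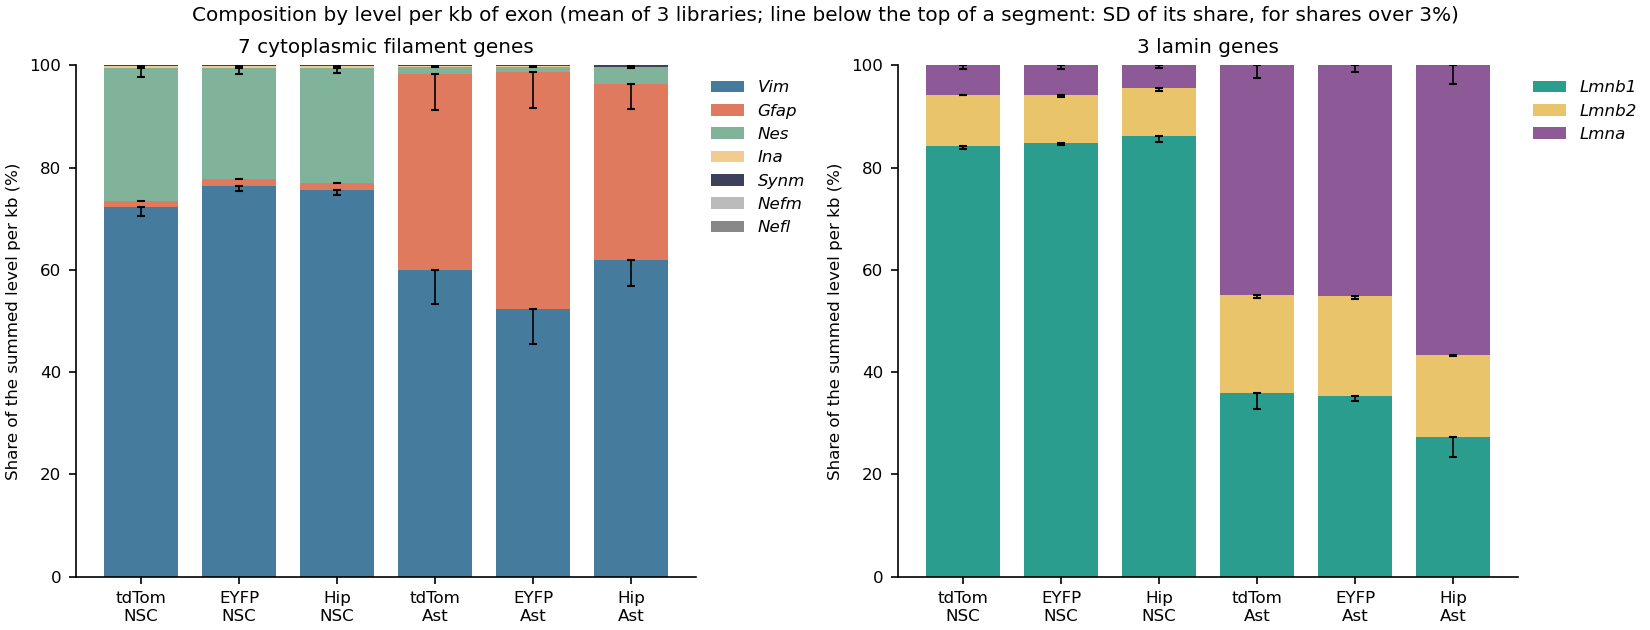
Shares of the summed level per kb of exon, in percent, for the 7 cytoplasmic filament genes (left) and the 3 lamin genes (right) in tdTomato (tdTom), EYFP and hippocampal (Hip) NSCs and astrocytes (Ast), as means of 3 libraries with the SD drawn downwards. Vim and Nes fill the NSC columns and Vim and Gfap the astrocyte columns, and Lmnb1 gives way to Lmna, which reaches 56.7% in hippocampal astrocytes.

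Gfap, the defining astrocyte filament gene, rose in all 3 lines, and Vim rose with it by less. The log2 change from NSC to astrocyte was 6.08 (SE 0.17) for Gfap in the tdTomato line, 6.37 (SE 0.16) in the EYFP line and 7.13 (SE 0.10) in the hippocampal line (limma with Benjamini-Hochberg adjustment, adjusted p = 3.06e-09, 1.13e-09 and 3.47e-11). The log2 value of Vim was 15.29, 15.34 and 15.29 in the tdTomato NSC libraries, 15.26, 15.26 and 15.35 in EYFP NSCs and 15.21, 15.12 and 15.22 in hippocampal NSCs. In the astrocytes it was 16.06, 15.93 and 15.92, then 16.10, 16.05 and 15.93, and in the hippocampal line 17.64, 17.30 and 17.32. All astrocyte libraries lay above all NSC libraries, and the hippocampal astrocytes stood apart from both traced lines. Vim changed by 0.66 (SE 0.067), 0.74 (SE 0.076) and 2.24 (SE 0.10) in the 3 lines (limma, adjusted p = 1.22e-05, 1.41e-05 and 2.38e-08). After quantile normalization the tdTomato change was 0.16 (limma, adjusted p = 0.16) and the call was lost.

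The balance of Gfap to Vim therefore moved towards Gfap in every line. Taken as the log2 level of Gfap per kb of exon minus that of Vim, it was -6.03, -6.05 and -6.16 in the tdTomato NSC libraries, -5.73, -5.65 and -6.07 in EYFP NSCs and -5.77, -5.62 and -5.84 in hippocampal NSCs. In the astrocytes the same difference was -0.67, -1.07 and -0.22, then -0.085, -0.63 and 0.17, and in the hippocampal line -1.10, -0.97 and -0.49. The fates did not overlap, and Gfap passed Vim per kb of exon in 1 library, of EYFP astrocytes. This crossing depends on the length used: the EYFP astrocyte mean was -0.18 per kb of exon and -0.62 per kb of coding transcript, and without any length the highest EYFP library was at -0.0017. Across all lines the balance changed by 5.31 (exact permutation test within lines, two-sided, p = 0.00025, the smallest that its 8000 relabellings give, adjusted p = 0.001 over 24 tests of balances). By line the Gfap to Vim ratio changed 42.8-fold, 49.6-fold and 29.7-fold. Between traced and hippocampal astrocytes it differed by 0.43, which did not pass the threshold (exact permutation test, 6 against 3, two-sided, p = 0.20).

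Nes, the filament gene used to mark neural progenitors, fell in both traced lines and did not pass the test in the hippocampal line. Its log2 value in the astrocyte libraries was 11.08, 11.19 and 11.01 in the tdTomato line, 11.07, 10.77 and 10.74 in the EYFP line and 13.80, 13.43 and 13.70 in the hippocampal line. The NSC libraries all lay between 13.75 and 14.39, so that hippocampal astrocytes overlapped with NSCs and traced astrocytes did not. Nes fell by 3.18 (SE 0.068) and 3.05 (SE 0.096) on the log2 scale in the traced lines (limma, adjusted p = 7.60e-10 and 4.07e-09). In the hippocampal line the change was -0.22 (SE 0.095, 95% interval -0.43 to -0.0055, limma, adjusted p = 0.058), which missed the threshold. That call depends on the libraries: without hippocampal NSC replicate 2 or astrocyte replicate 1 the change was -0.27 or -0.30 (limma, adjusted p = 0.042 and 0.013), and after quantile normalization it was -0.34 (limma, adjusted p = 0.0093).

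Against its partner Vim, however, Nes lost ground in the hippocampal line too. The log2 level of Nes per kb minus that of Vim was -1.58, -1.51 and -1.33 in tdTomato NSCs, -1.76, -1.94 and -1.76 in EYFP NSCs and -1.66, -1.80 and -1.81 in hippocampal NSCs. In the astrocytes it was -5.42, -5.18 and -5.34, then -5.47, -5.72 and -5.63, and in the hippocampal line -4.27, -4.32 and -4.05. NSC and astrocyte libraries were fully apart in all lines, and the ratio of Nes to Vim fell 14.3-fold, 13.8-fold and 5.48-fold. The change over all lines was -3.36 (exact permutation test, two-sided, p = 0.00025, adjusted p = 0.001). Traced astrocytes lay below hippocampal astrocytes with no overlap (difference -1.25, exact permutation test, p = 0.0119, the smallest that 84 relabellings give, adjusted p = 0.024).

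**Figure D2:**
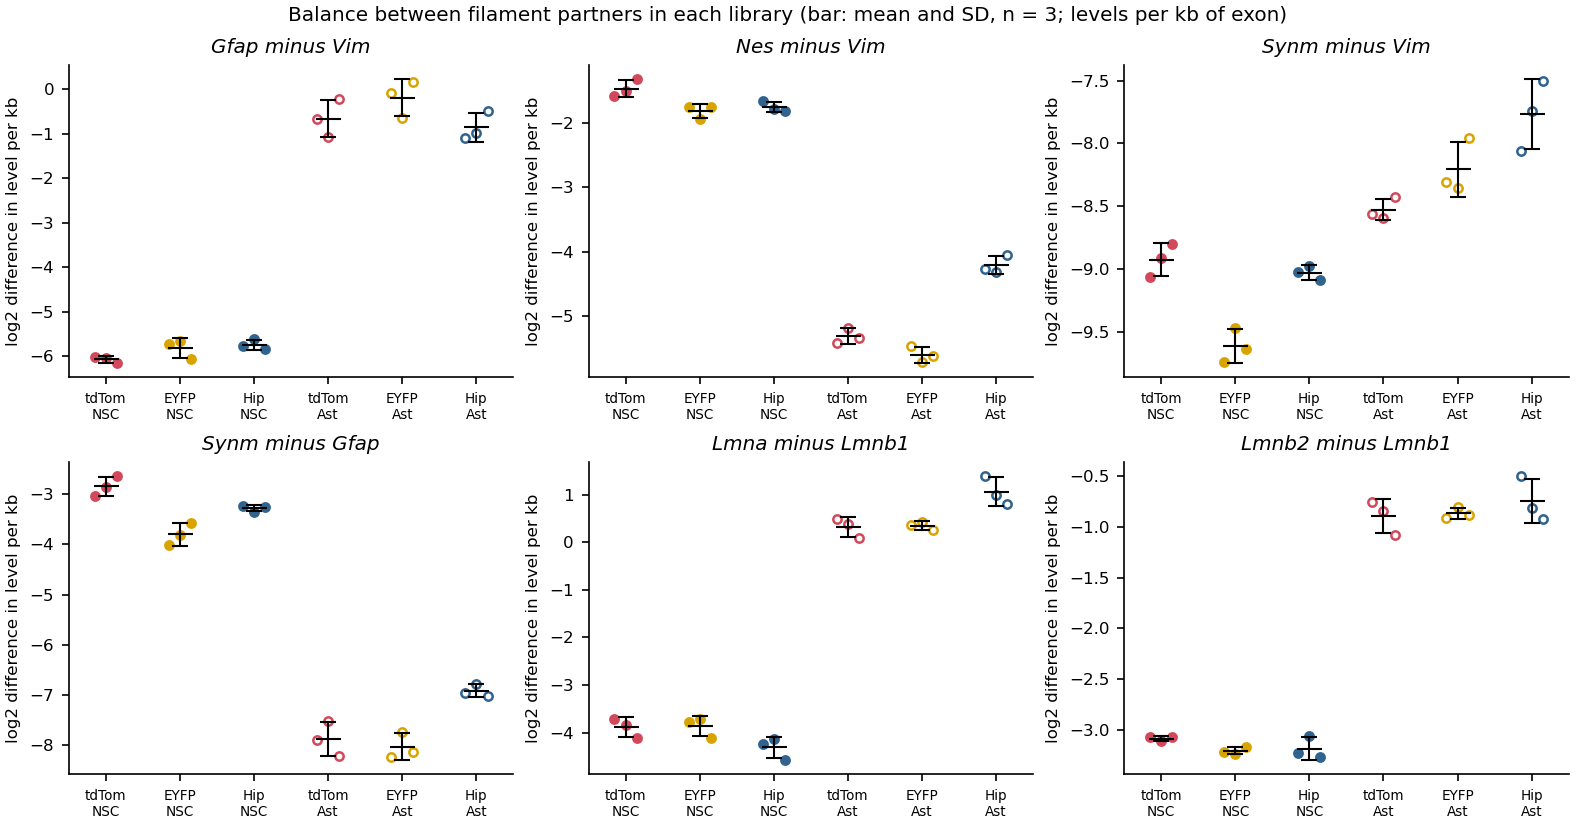
Log2 difference in level per kb of exon between 2 filament partners in each of the 18 libraries (points), by group, with the mean and SD of 3 libraries. The fates separate fully in all 6 balances, and among astrocytes the hippocampal line stands apart in Nes to Vim, Synm to Gfap and Lmna to Lmnb1.

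Synm, which encodes the large filament protein synemin that joins vimentin and GFAP polymers, rose in all 3 lines by unequal amounts. Its log2 value was 6.97, 7.16 and 7.23 in tdTomato NSCs, 6.26, 6.52 and 6.46 in EYFP NSCs and 6.93, 6.88 and 6.87 in hippocampal NSCs. In astrocytes the values were 8.24, 8.08 and 8.23, then 8.54, 8.43 and 8.71, and 10.32, 10.31 and 10.56. Every astrocyte library was above every NSC library, with the hippocampal astrocytes the highest. The log2 change was 1.06 (SE 0.096), 2.15 (SE 0.11) and 3.50 (SE 0.079) in the tdTomato, EYFP and hippocampal lines (limma, adjusted p = 5.70e-06, 1.05e-07 and 3.21e-10). Over all lines the Synm to Vim balance changed by 1.02 and the Synm to Gfap balance by -4.29, both with fates that did not overlap (exact permutation test, two-sided, p = 0.00025 each, adjusted p = 0.001). Exons of Synm share 510 bases, 6.43% of their length, with genes on the opposite strand, and the use of strand in the counting is not given in the sources used here.

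Sequences around the starts of these 4 cytoplasmic genes are printed because Gfap, Vim and Synm rose together while Nes did not. They are RefSeq windows on GRCm38.p6 of 280 bases, from 250 bases before the gene's start to 30 bases after the start, read 5′ to 3′ on the gene's strand. Gfap lies at chr11:102897171-102897450 (minus strand), Vim at chr2:13574061-13574340 (plus), Nes at chr3:87970843-87971122 (plus) and Synm at chr7:67759713-67759992 (minus). Capitals mark matches, on either strand, to any of 5 short motifs that were searched: TTCNNNGAA (the STAT site), GGCGCC (a GC-rich SMAD site), TATAAA (the TATA box), TGANTCA (the AP-1 site) and CCAAT.
Gfap: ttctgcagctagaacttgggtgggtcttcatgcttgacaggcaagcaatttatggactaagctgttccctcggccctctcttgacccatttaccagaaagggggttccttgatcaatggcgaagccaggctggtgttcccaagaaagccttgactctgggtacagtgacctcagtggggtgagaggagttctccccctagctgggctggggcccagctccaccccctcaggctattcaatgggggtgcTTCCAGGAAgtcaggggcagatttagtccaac
Vim: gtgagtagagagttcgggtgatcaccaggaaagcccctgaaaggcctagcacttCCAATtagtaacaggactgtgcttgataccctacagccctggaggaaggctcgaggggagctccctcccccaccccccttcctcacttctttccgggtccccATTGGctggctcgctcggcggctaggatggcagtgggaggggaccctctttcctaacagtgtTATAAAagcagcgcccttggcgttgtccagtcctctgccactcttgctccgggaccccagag
Nes: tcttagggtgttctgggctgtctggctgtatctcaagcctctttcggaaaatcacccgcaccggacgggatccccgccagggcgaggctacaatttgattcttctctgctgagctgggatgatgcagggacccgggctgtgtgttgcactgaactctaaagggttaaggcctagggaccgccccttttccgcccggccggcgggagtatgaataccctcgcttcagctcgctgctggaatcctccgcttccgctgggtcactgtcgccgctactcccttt
Synm: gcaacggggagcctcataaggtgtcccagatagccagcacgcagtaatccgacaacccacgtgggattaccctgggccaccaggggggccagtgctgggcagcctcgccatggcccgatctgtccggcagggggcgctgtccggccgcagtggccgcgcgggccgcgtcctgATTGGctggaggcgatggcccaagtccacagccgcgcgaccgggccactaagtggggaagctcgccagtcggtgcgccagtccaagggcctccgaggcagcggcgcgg

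In the Gfap window the only match was TTCCAGGAA, which begins 2 bases before the start and runs across it. The window was lengthened from 250 to 280 bases after the sequence had been seen, and with 250 bases Gfap has no match. Vim holds TATAAA at -32 and CCAAT at -196 and, on the other strand, at -94, and Synm holds CCAAT on the other strand at -78. The Nes window has none of these motifs. Such matches are common: of 32851 windows of this length 7.83% hold TTCNNNGAA, 10.9% GGCGCC, 13.1% TATAAA, 7.46% TGANTCA and 36.1% CCAAT, so a match is a description and not a site.

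The neuronal filament genes were low in every group. Nefl, the neurofilament subunit on which the others assemble, never reached the filter of 10 on the linear scale and ranged over the 18 libraries from -0.12 to 1.06 on the log2 scale, so that it was not tested by itself. Its 6 tdTomato libraries, at 0.47 to 1.06, lay above the other 12, of which the highest was a hippocampal NSC library at 0.44. Nefm, the medium subunit, was 4.10, 3.97 and 3.85 in tdTomato NSCs, 2.33, 2.46 and 2.66 in EYFP NSCs and 1.71, 2.95 and 1.97 in hippocampal NSCs. Its astrocyte values were 4.50, 4.23 and 3.76, then 3.12, 3.83 and 3.61, and 2.69, 2.85 and 1.73. Both tdTomato groups had the highest means. NSCs and astrocytes overlapped over all lines and in the tdTomato and hippocampal lines, while in the EYFP line the astrocytes lay above the NSCs without overlap. Over all lines Nefm changed by 0.48 (SE 0.21, limma, adjusted p = 0.0415). Without any filter the adjusted p (limma) was 0.064, after quantile normalization the change was 0.24 with an adjusted p of 0.31, and on leaving out 1 library the call held only for tdTomato NSC replicate 1 or 2, hippocampal NSC replicate 2, tdTomato astrocyte replicate 3, EYFP astrocyte replicate 1 or hippocampal astrocyte replicate 3, with adjusted p (limma) of 0.051 to 0.087 for the other 12.

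Ina, which encodes α-internexin, a filament protein of young neurons, was the highest of the 3, with NSC libraries from 6.79 to 7.39 and astrocyte libraries from 5.77 to 6.68. These ranges did not overlap. Ina fell by 1.29 (SE 0.15), 0.79 (SE 0.13) and 0.61 (SE 0.13) on the log2 scale in the tdTomato, EYFP and hippocampal lines (limma, adjusted p = 4.02e-05, 3.14e-04 and 0.0018). The balance of Nefm to Nefl moved by 0.62 and that of Ina to Nefl by -0.76 between fates (exact permutation test, p = 0.0145 and 0.0005, adjusted p = 0.0268 and 0.0017), but Nefl lies near the floor of the values and the ranges overlapped. Nefl and Nefm also overlap by 1108 exonic bases on opposite strands, 32.8% of the Nefl exons and 19.2% of those of Nefm, and Ina shares 456 bases, 14.1%, with Nt5c2. The 10 listed neuronal markers summed to 14.48 to 14.65 in NSCs and 13.93 to 14.37 in astrocytes (log2), most of it Map2, with Stmn2 near the floor. Of the 8 tested over all lines, 3 were higher and 3 lower in astrocytes (median -0.0099), where 81.9% of all genes passed. The part of these markers in the Ina and Nefm values was not tested.

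**Figure D3:**
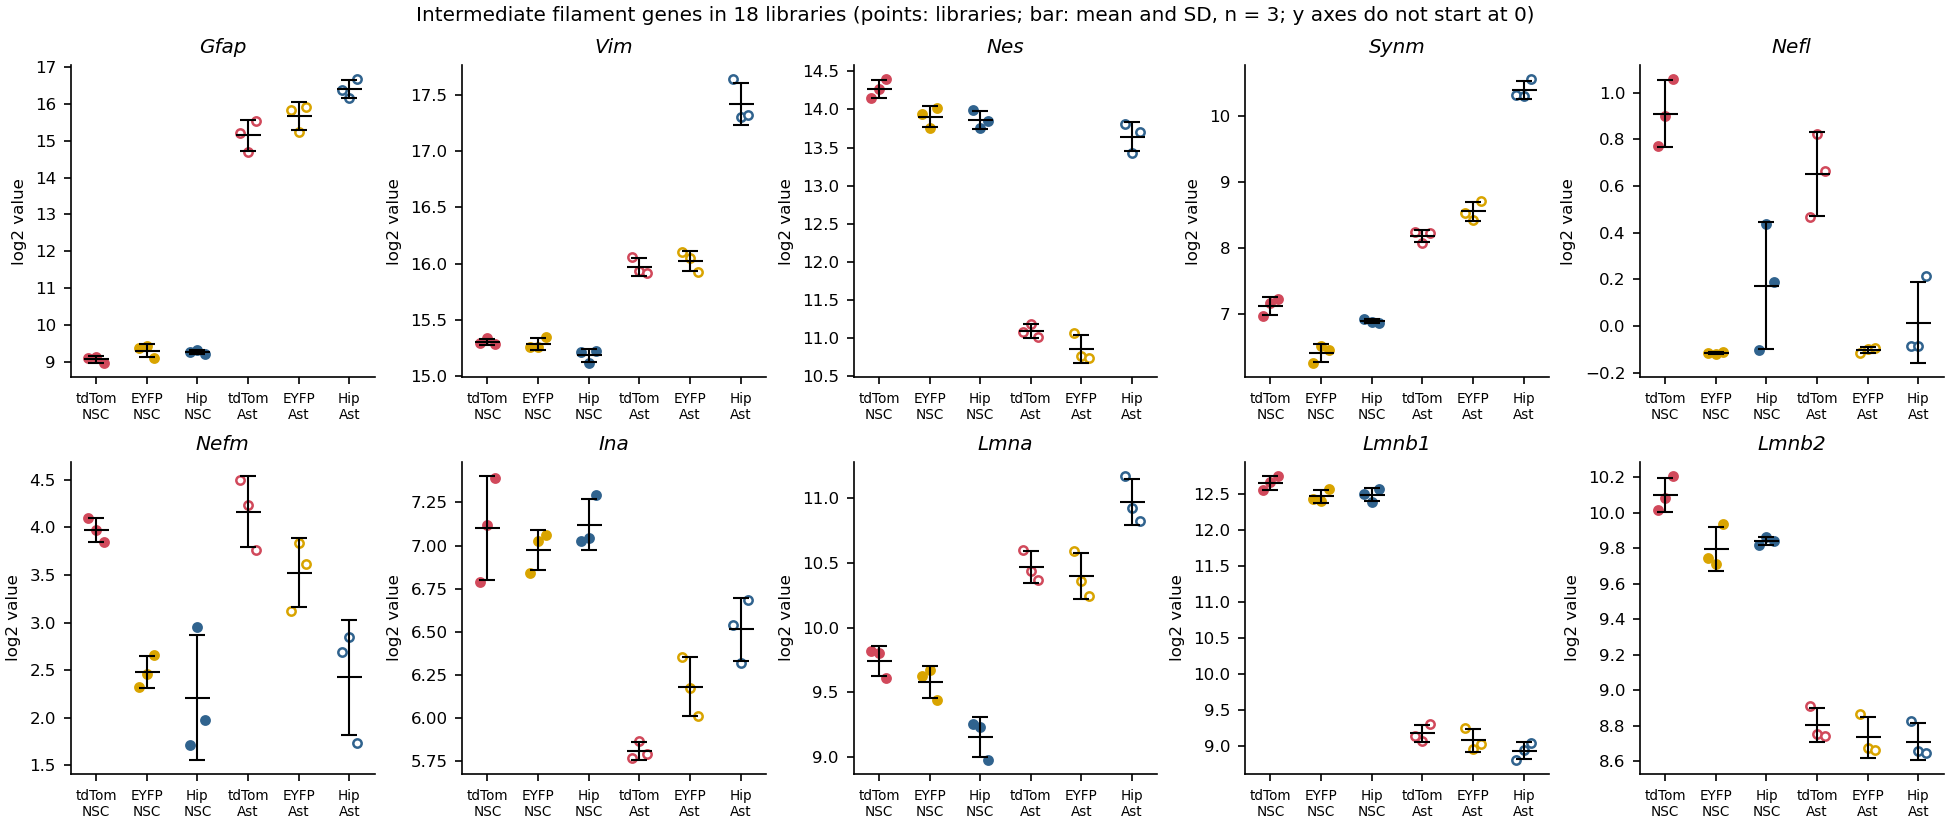
Deposited log2 values of the 10 genes in each of the 18 libraries (points; filled for NSCs, open for astrocytes) of the tdTomato (tdTom), EYFP and hippocampal (Hip) lines, with the mean and SD of 3 libraries; y axes differ and do not start at 0. Hippocampal astrocytes (13.43 to 13.80) sit beside the NSCs for Nes, as they do for the weak Nefm and Nefl, and Nefl stays between -0.12 and 1.06.

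Among the lamins, the B-type genes fell and Lmna rose in all 3 lines. Lmnb1, the main B-type lamin of dividing cells, was 12.39 to 12.74 in the 9 NSC libraries, with a median of 12.55, and 8.80 to 9.30 in the 9 astrocyte libraries, with a median of 9.04. The 3 lines lay together within each fate. Lmnb1 fell by 3.48 (SE 0.069), 3.39 (SE 0.079) and 3.56 (SE 0.067) on the log2 scale in the tdTomato, EYFP and hippocampal lines (limma, adjusted p = 4.51e-10, 7.59e-10 and 1.30e-10). Lmnb2, the other B-type lamin, ranged from 9.71 to 10.21 in NSCs and from 8.65 to 8.91 in astrocytes. It fell by 1.30 (SE 0.069), 1.06 (SE 0.082) and 1.13 (SE 0.062) (limma, adjusted p = 1.53e-07, 1.75e-06 and 1.04e-07).

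Lmna, whose products stiffen the lamina, was 9.82, 9.80 and 9.61 in tdTomato NSCs, 9.62, 9.67 and 9.44 in EYFP NSCs and 9.25, 9.23 and 8.98 in hippocampal NSCs. Its astrocyte values were 10.60, 10.44 and 10.37, then 10.59, 10.36 and 10.25, and 11.17, 10.92 and 10.82. The hippocampal line was thus the lowest as NSCs and the highest as astrocytes. Lmna changed by 0.72 (SE 0.076), 0.82 (SE 0.093) and 1.82 (SE 0.097) (limma, adjusted p = 1.59e-05, 2.68e-05 and 8.60e-08). The log2 level of Lmna per kb minus that of Lmnb1 was -3.71, -3.84 and -4.11 in tdTomato NSCs, -3.78, -3.71 and -4.10 in EYFP NSCs and -4.23, -4.13 and -4.57 in hippocampal NSCs. In the astrocytes this balance was 0.48, 0.39 and 0.088, then 0.37, 0.43 and 0.25, and 1.39, 1.00 and 0.80. The sign turned in every library, so that Lmna was below Lmnb1 per kb in each NSC library and above it in each astrocyte library.

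The ratio of Lmna to Lmnb1 changed 18.5-fold in the tdTomato line, 18.6-fold in the EYFP line and 41.5-fold in the hippocampal line (all lines, log2 change 4.60, exact permutation test, two-sided, p = 0.00025, adjusted p = 0.001). Lmnb2 gained on Lmnb1 by 2.31 (the same exact permutation test, p = 0.00025, adjusted p = 0.001). As shares of the 3 lamin genes per kb of exon, Lmnb1 went from 84.3% ± 0.66, 84.9% ± 0.51 and 86.1% ± 1.1 in NSCs to 35.9% ± 3.1, 35.4% ± 1.2 and 27.2% ± 3.8 in astrocytes. Lmna went from 5.74% ± 0.75, 5.87% ± 0.78 and 4.37% ± 0.61 to 44.8% ± 2.5, 45.2% ± 1.4 and 56.7% ± 3.7 (SD, n = 3). The lamin sum per kb went the other way from the cytoplasmic sum: it was 2577 ± 149, 2251 ± 127 and 2252 ± 113 in NSCs and 542 ± 25.0, 514 ± 55.9 and 608 ± 37.8 in astrocytes. With coding transcript lengths the Lmna share of NSCs was 7.38% to 9.82% and that of astrocytes 57.7% to 68.6% as group means.

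Over all lines, 9 of the 10 genes were tested between fates and all 9 passed the threshold, 5 higher and 4 lower in astrocytes, where 81.9% of the 15448 genes tested passed it (42.1% higher and 39.8% lower). Passing the test was the rule in this contrast, so the count says little about filament genes. The median log2 change of the 9 was 0.48, against 0.021 over all genes tested. It is the value of Nefm, a weak gene whose call did not hold in every setting. With 5 genes higher and 4 lower, it does not describe a common shift. In the tdTomato line 8 of 9 genes tested passed, 4 higher and 4 lower, where 79.3% of all genes did (39.9% higher and 39.5% lower). In the EYFP line 8 of 8 passed, 4 higher and 4 lower, where 74.9% of all genes did (37.5% higher and 37.4% lower). In the hippocampal line 7 of 8 passed, 4 higher and 3 lower, where 77.3% of all genes did (39.2% higher and 38.2% lower). The genes not passing were Nefm in the tdTomato line, at 0.19 (SE 0.22), and Nes in the hippocampal line.

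**Figure D4:**
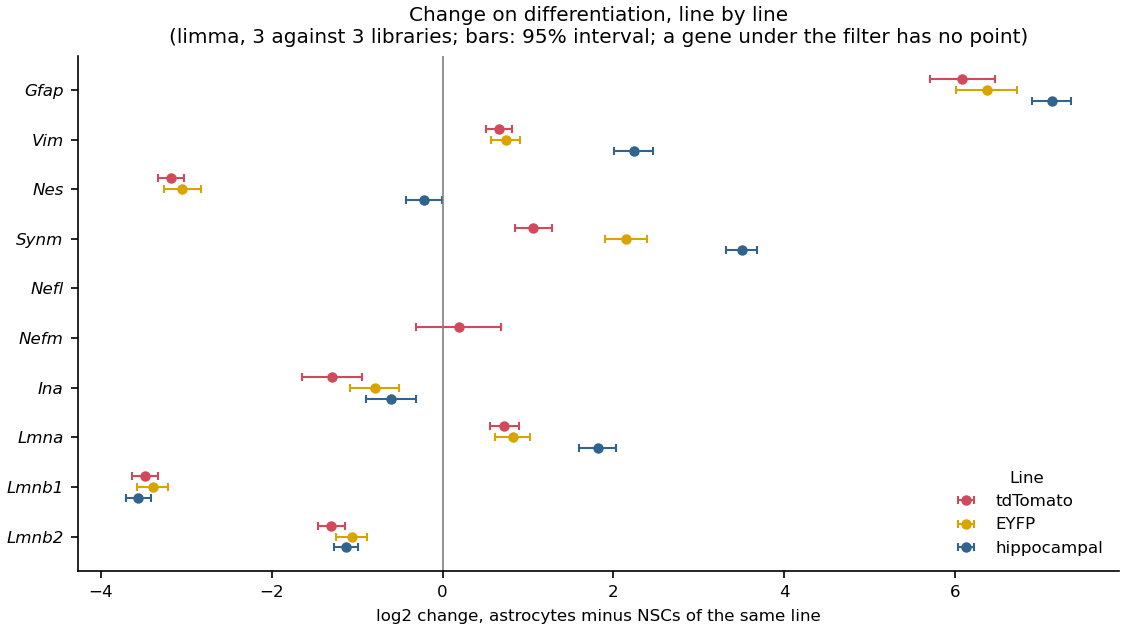
Log2 change from NSCs to astrocytes of each gene (rows) in the tdTomato, EYFP and hippocampal lines, with 95% intervals from limma on 3 against 3 libraries; Nefl, and Nefm outside the tdTomato line, were under the filter. The lines lie close together for Lmnb1 and Lmnb2, while the hippocampal points lie further right for Vim, Nes, Synm and Lmna.

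Between traced and hippocampal NSCs 1 of 9 genes tested passed, where 19.4% of all genes did (10.6% higher and 8.81% lower), a share too near that of all genes to say more of filament genes: Lmna was higher in traced NSCs by 0.51 (SE 0.091, limma, adjusted p = 0.0037), with no overlap. The other 8 differed by -0.13 to 0.22, apart from Nefm at 1.02, which reached the filter in tdTomato libraries only. Of the astrocyte markers 6 of 11 were lower in traced NSCs (median -0.66), and their part was not tested. For Gfap the difference was -0.086 (95% interval -0.31 to 0.13) and for Nes 0.22 (95% interval -0.060 to 0.51). Among balances, Lmna to Lmnb1 was higher in traced NSCs by 0.44 (exact permutation test, two-sided, p = 0.0119, adjusted p = 0.024). Without hippocampal NSC replicate 3 it was 0.31 (p = 0.071 of the same exact test). Nefm to Nefl differed by 0.79 with overlap, a description, since Nefl is near the floor and Nefm reached the filter only in tdTomato NSCs.

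Between the astrocytes of the 2 origins, 7 of 9 genes tested passed, 6 lower and 1 (Nefm, described at the end) higher in traced astrocytes, where 52.0% of all genes passed (27.9% lower and 24.1% higher). The median difference of the 9 was -0.54, against -0.012 over all genes. Marker lists moved as well: 6 of 9 neural stem cell genes (median 0.53) and 5 of 8 neuronal genes (median 0.63) were higher and 3 of 4 ependymal genes lower (median -0.95) in traced astrocytes, and their part was not tested. These counts are a description, since they include Dcx, which did not meet the filter in hippocampal libraries alone, and Ccdc153, which did not meet it in traced libraries alone. Nes was lower in traced astrocytes (log2 difference -2.67, SE 0.11), as were Synm (-2.02, SE 0.13), Vim (-1.42, SE 0.096) and Gfap (-0.99, SE 0.24) (limma, adjusted p = 3.73e-08, 6.09e-07, 9.65e-07 and 0.0061). Lmna was lower as well, at -0.54 (SE 0.093), and Ina at -0.52 (SE 0.15) (limma, adjusted p = 7.43e-04 and 0.0148). Without hippocampal astrocyte replicate 1 or 3 the Ina call was lost (limma, adjusted p = 0.051 and 0.073). The 1 higher call was Nefm, with a difference of 1.42 and traced libraries from 3.12 to 4.50. It reached the filter in 3 tdTomato, 2 EYFP and 0 hippocampal astrocyte libraries, so it was tested only through the group where it was high, and the value is a description.

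The B-type lamins did not pass, with differences of 0.19 (95% interval 0.0034 to 0.38) for Lmnb1 and 0.058 (95% interval -0.10 to 0.22) for Lmnb2. For Lmnb1 the adjusted p (limma) was 0.082, but 0.040 after median centring, 0.044 after quantile normalization, 0.027 in the 6-group model and 0.042 without EYFP replicate 2. In the balances, Synm to Gfap (difference -1.03) and Lmna to Lmnb1 (difference -0.73) were lower in traced astrocytes, each without overlap (exact permutation test, two-sided, p = 0.0119, adjusted p = 0.024). Nefm to Nefl differed the other way, by 1.16 without overlap, which is again a description of low values, and by 0.71 without hippocampal replicate 3. Synm to Vim differed by -0.60 (exact permutation test, p = 0.0238, adjusted p = 0.038), with overlap between the origins. That call was lost (p from 0.054 to 0.071 of the same exact test) without tdTomato replicate 3, EYFP replicate 2 or hippocampal replicate 2 or 3 of the astrocytes, at differences of -0.59, -0.60, -0.59 and -0.47.

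The change from NSC to astrocyte itself differed between origins for 6 of the 9 genes tested, all with the smaller rise or larger fall in traced cells, where 46.2% of all genes passed (25.9% lower and 20.3% higher). The difference in log2 change was -2.89 (SE 0.13) for Nes, -1.89 (SE 0.12) for Synm, -1.54 (SE 0.098) for Vim and -1.04 (SE 0.13) for Lmna (limma, adjusted p = 1.63e-11, 1.12e-09, 1.47e-09 and 3.43e-06). For Gfap it was -0.90 (SE 0.22, limma, adjusted p = 0.0029). Ina, at -0.44 (SE 0.17), was just past the threshold (limma, adjusted p = 0.048). On leaving out 1 library that call held only for replicate 1 of the tdTomato NSCs, EYFP NSCs or EYFP astrocytes, hippocampal NSC replicate 3 or hippocampal astrocyte replicate 2, with values of -0.45 to -0.35 for the others (limma, adjusted p up to 0.13). Lmnb1 and Lmnb2 had differences of 0.12 (95% interval -0.092 to 0.33) and -0.051 (95% interval -0.25 to 0.14), and Nefm 0.40 (SE 0.40). The sign for Lmnb2 turned with median centring or quantile normalization, to 0.022 and 0.0074.

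Between the traced lines, 5 of 9 genes passed in NSCs, each higher in the tdTomato line and Nefm among them, where 33.2% of all genes passed (18% higher and 15.2% lower). The log2 difference was 0.71 (SE 0.11) for Synm, 0.36 (SE 0.082) for Nes, 0.30 (SE 0.072) for Lmnb2 and 0.19 (SE 0.060) for Lmnb1 (limma, adjusted p = 0.0024, 0.011, 0.014 and 0.046). Nefm reached the filter in 3 tdTomato and 0 EYFP NSC libraries, so it was tested only because it was high in the former, and its difference of 1.49 is given as a description. The count was 3 without tdTomato replicate 2 or EYFP replicate 1 and 2 without tdTomato replicate 3, with Lmnb1 not past the threshold in any of these fits. Marker lists moved in the same contrast: 8 of 11 astrocyte genes and 8 of 9 neural stem cell genes were lower in tdTomato NSCs (medians -0.65 and -0.49), and 4 of 8 proliferation genes were higher and 0 lower (median 0.20), against a median of 0.013 over all genes. Tmem119 had a mean of 6.15 in tdTomato and 2.37 in EYFP NSCs. In the fibroblast and mural list, Col3a1 had means of 6.15 and 2.95 although the list sums overlapped, at 7.45 to 8.31 and 7.49 to 7.90. The part of these markers in the filament values was not tested. In astrocytes 1 of 9 passed, where 11.2% of all genes did (5.60% higher and 5.63% lower): Synm was lower in the tdTomato line (difference -0.38, SE 0.089, limma, adjusted p = 0.028). The Synm order of the traced lines was thus the opposite in the 2 fates, with no overlap in either. A test of that reversal was not run, and without tdTomato replicate 2 or 3 or EYFP replicate 1 or 3 the astrocyte call was lost (limma, adjusted p from 0.065 to 0.11), as it was without the filter (0.093) or without a trend (0.058).

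Cytolinkers and small heat shock proteins, which tie filaments to other structures and keep them from clumping, mostly rose. Of 13 listed genes 12 were found and 10 tested over all lines, with 9 higher and 0 lower, where 81.9% of all genes passed (42.1% higher and 39.8% lower), and a median log2 change of 1.92, against 0.021 over all genes. Of the 9, Ppl and Hspb1 were tested only through astrocytes. Hspb8, a small heat shock protein, rose by 6.31 (SE 0.084), from a mean of 7.36 in NSCs to 13.7 in astrocytes, and Plec, the gene of the linker plectin, by 4.28 (SE 0.080), from 9.14 to 13.4 (limma, adjusted p = 5.07e-20 and 3.19e-18). Cryab, which encodes αB-crystallin, a chaperone known from the GFAP aggregates of Alexander disease, rose by 2.41 (SE 0.096), from 10.4 to 12.8 (limma, adjusted p = 1.10e-13). The change differed between origins for 7 of the 10, with 6 lower and 1 higher in traced cells, where 46.2% of all genes passed. Traced minus hippocampal, the difference in change was -0.56 (SE 0.14) for Cryab, 0.11 (SE 0.076) for Plec and -0.21 (SE 0.16) for Hspb8 (limma, adjusted p = 0.0024, 0.26 and 0.33). For Hspb1, another small heat shock protein gene, it was -2.89, given as a description, since Hspb1 was picked after its values were seen and did not reach the filter among NSCs. Hspb6 changed in opposite directions, by -0.64 (SE 0.094) and -0.59 (SE 0.093) in the traced lines and 0.68 (SE 0.12) in the hippocampal line (difference of changes -1.29); it was picked after its values were seen.

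Ppl, which encodes the linker periplakin, a vimentin-binding protein of cell junctions, was also picked after its values were seen. Its mean was 1.89 to 2.03 in the NSC groups, 4.13 ± 0.29 in tdTomato and 3.97 ± 0.68 in EYFP astrocytes and 10.6 ± 0.71 in hippocampal astrocytes (SD, n = 3). The log2 change was 2.14 (SE 0.23) and 1.95 (SE 0.33) in the traced lines and 8.67 (SE 0.29) in the hippocampal line, a difference of -6.62. NSC values of Ppl lay under the filter, so that it was tested only through astrocytes, and these values are a description.

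**Figure D5:**
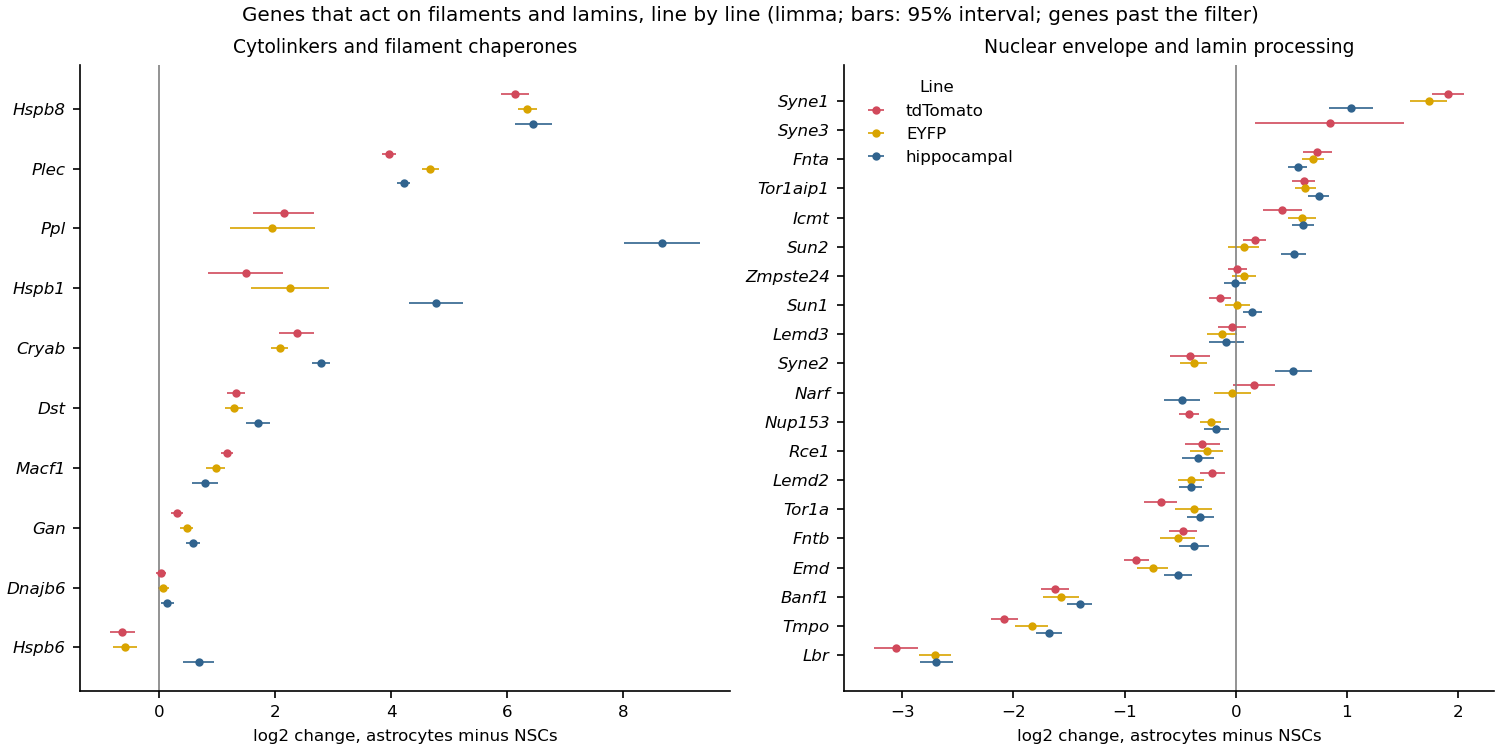
Log2 change from NSCs to astrocytes of listed genes past the filter, in the tdTomato, EYFP and hippocampal lines with 95% intervals from limma: linkers and filament chaperones on the left, nuclear envelope and lamin-processing genes on the right. Hspb8 and Plec lie far to the right and Lbr and Tmpo far to the left in all lines. For Ppl and for Hspb1 the hippocampal point lies further right than those of the traced lines.

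The nuclear envelope list held genes of both directions, as did all genes. Its 20 genes were all tested, with 6 higher and 10 lower, a share near the 81.9% of all genes that passed, and a median of -0.10. Lbr, the lamin B receptor of the inner nuclear membrane, fell by 2.82 (SE 0.061), from 10.7 to 7.91, and Tmpo, which encodes the lamina-associated LAP2 proteins, fell by 1.87 (SE 0.055), from 12.6 to 10.7 (limma, adjusted p = 2.29e-17 and 1.57e-15). Syne1, a nesprin that links the envelope to the cytoskeleton, rose by 1.56 (SE 0.10), from 9.64 to 11.2 (limma, adjusted p = 1.66e-10). Zmpste24, the protease that matures prelamin A, changed by 0.029 (95% interval -0.024 to 0.081) and was picked for that role.

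Of the kinases that act on filaments and lamins the mitotic ones changed most. Of 11 tested, 2 were higher and 7 lower, a share near the 81.9% of all genes that passed, with a median of -0.19. Aurkb fell by 5.42 (SE 0.098), Plk1 fell by 5.15 (SE 0.078) and Cdk1, which phosphorylates lamins, vimentin and nestin at mitosis, fell by 3.84 (SE 0.050) on the log2 scale (limma, adjusted p = 2.06e-18, 1.92e-19 and 4.59e-20). The 8 proliferation markers, Cdk1 among them, all fell, with a median of -4.55; how much of the change in Lmnb1 goes with fewer dividing cells was not tested. Of the other cytoplasmic filament genes, 14 of 20 were found and 7 tested, with 4 higher and 2 lower, again near the 81.9% of all genes. Those abundant enough for the rule for naming were Krt10, higher by 0.48 (SE 0.071), Iffo2 with a change of -0.13 (SE 0.053) and Iffo1 with -0.075 (SE 0.030) (limma, adjusted p = 5.80e-06, 0.030 and 0.026). The larger changes were in weaker genes, picked after their values were seen and given as a description: 2.61 for Sync, which encodes syncoilin, 1.5 for Prph, the gene of the neuronal filament protein peripherin, and 1.38 for Krt222. Prph and Krt222 did not reach the filter among NSCs and were tested only through astrocytes, where they were high.

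The genes most like each filament gene over the 18 libraries, by Pearson's r among the 15448 genes past the filter, are given as a description, since all libraries share the 2 fates and 3 lines. For Gfap they were Fxyd1, Ddo and Capn1 (r = 0.998, 0.997 and 0.997), and for Vim they were Lcn2, Sbno2 and Col6a2 (0.995, 0.995 and 0.991). Lcn2, which encodes lipocalin 2, was highest in hippocampal astrocytes, with a mean of 7.79 against 3.86 and 3.82 in the traced astrocytes, which restates its likeness to Vim. NSC group means were 2.62 to 2.75 for Fxyd1 and 1.46 to 1.52 for Lcn2, under the filter of 3.32 on the log2 scale. These 2 genes thus passed the filter through astrocytes, where they were high. Nes was most like Akna, Nsg1 and Myl12b (0.985, 0.984 and 0.981) and Synm most like Steap3, Vsig10 and Trappc10 (0.991, 0.990 and 0.986). Lmnb1 was most like the replication gene Mcm10 and the mitotic genes Kif20a and Cdc20 (0.999 each). Within the set, Synm followed Vim (r = 0.97) and Gfap (0.89), while Nes and Vim gave -0.20.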

How the data were processed

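RNA of 18 libraries, 3 each of NSCs and astrocytes from 3 mouse lines, was analysed from the table deposited by the authors, which gives log2 expression values for 27997 genes by Ensembl ID. Per the labels, the reads were trimmed with Trimmomatic 0.36, aligned with STAR 2.5.2 and counted with RSEM 1.3.0 on GRCm38, and normalized with DESeq2 1.18.1. The labels name a stranded kit, the paper's methods another poly(A) kit. The transform is not named; 29.4% of the values are negative, as in a regularized log. If it is one, changes of weak genes are understated, which was not tested. Counts and depth are unknown, so no counting error is given. All 18 columns were matched to samples by name, and 0 columns were left over.

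Differences were tested on the log2 values as they stand with limma 3.58.1 (R 4.3.3, trend in the variance), with Benjamini-Hochberg adjustment over all genes tested, a threshold of 0.05 and genes kept where 3 or more of the libraries compared reached 10 (linear). The fate comparison had the line as a covariate; the difference between origins in the change was a contrast of a 6-group model. A balance is the log2 difference of 2 genes in a library, tested by two-sided exact permutation (within lines for fates, 6 against 3 for origins), with 24 tests adjusted together (Python 3.11.15, numpy 2.4.6). Per-length levels used the exon union of GENCODE M21. Transcripts of the members shared no 75-base sequence with those of another gene, read in the same direction. Stretches shared on opposite strands, as by Nefl and Nefm, were outside that search. Scripts were tested on simulated data.

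The genes, lists and motifs were chosen with earlier results of these data known. Named genes were the 10 members, from each list the 3 with the largest change among those past the threshold with a fate mean of 100 or more on the linear scale, and the 3 genes most like each of 5 members. Symbols came from the supplied name table and GENCODE, promoter windows from RefSeq. Alternatives were no filter or a filter of 100, pseudocounts of 1 and 10, median centring, quantile normalization, no trend, a replicate block, a 6-group model, other lengths and leaving out each library.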

Additional observations from a re-analysis of the deposited data

Results flagged for a closer look

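The change from NSC to astrocyte differed between traced and hippocampal cells, by an interaction term, for 6 of the 9 genes tested. Of all genes 46.2% passed (25.9% lower and 20.3% higher). The difference in log2 change, traced minus hippocampal, was -0.90 for Gfap, -1.54 for Vim, -2.89 for Nes, -1.89 for Synm, -0.44 for Ina and -1.04 for Lmna (limma with Benjamini-Hochberg adjustment over all genes, adjusted p = 0.0029, 1.47e-09, 1.63e-11, 1.12e-09, 0.048 and 3.43e-06). For Gfap, Vim, Synm and Lmna the rise was smaller in traced cells, and for Nes and Ina the fall was larger. The hippocampal side of each value rests on 1 line. The Ina value was no longer past the threshold on leaving out most of the libraries in turn, with adjusted p (limma) up to 0.13. No sample stood apart by Dixon's test in any of 40 pools of 6 or 9 libraries, of which chance would mark about 1 in 20. These pools join lines, whose differences widen the range, and the groups of 3 libraries were not examined.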

How the results depend on the processing

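Most changes, counts and balances kept their direction and their side of the threshold. The values that turned sign were all small: Nefm in the tdTomato line (-0.10, quantile normalization), Ina between origins in NSCs (range -0.15 to 0.0025, leaving out a library), Ina between the traced NSC lines (-0.020 to 0.28), Lmna between the traced astrocyte lines (-0.0083 to 0.17), and the origin difference in the Lmnb2 change (0.022 with median centring, 0.0074 with quantile normalization, -0.083 to 0.0088 leaving out a library). The Synm to Gfap balance between origins in NSCs turned to 0.094, 0.056 and 0.0053 without EYFP replicate 1, 2 or 3 (range -0.18 to 0.094), and Lmnb2 to Lmnb1 to -0.0038 without hippocampal replicate 3 (range -0.0038 to 0.10).

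Genes called between traced and hippocampal NSCs were 2 in the 6-group model. Between the traced NSC lines they were 3 with no filter and 2 to 6 when leaving out a library. Between the traced astrocyte lines they were 0 by limma without a trend, 3 of 9 then having an unadjusted p under 0.05, and 0 to 1 when leaving out a library (0 without tdTomato replicate 2 or 3 or EYFP replicate 3, with 2, 5 and 2 genes at an unadjusted p under 0.05). The Nefm to Nefl balance between fates was 0.46 after quantile normalization (exact permutation p = 0.05). Between origins it was 0.40 in NSCs with a pseudocount of 10, and leaving out a library gave 0.67 to 1.03 in NSCs (call lost without tdTomato or EYFP replicate 3 or hippocampal replicate 1 or 3) and 0.71 to 1.42 in astrocytes (lost without hippocampal replicate 3). Ina to Nefl between astrocyte origins passed at -0.66 and -0.49 with pseudocounts of 1 and 10, and leaving out a library it was -0.93 to -0.64, passing without EYFP replicate 1. Leaving out a library gave 0.31 to 0.52 for Lmna to Lmnb1 between NSC origins and -0.74 to -0.47 for Synm to Vim between astrocyte origins. The cause was not tested.

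The replicate numbers are shared by all groups, but same-numbered libraries correlated by 0.106 on average within a fate (18 pairs, 0.012 to 0.31) and -0.023 between fates of a line (9 pairs). Between the traced astrocyte lines the 3 pairs gave 0.31, 0.27 and 0.060. Not every pair was above 0.1, so the numbers were not taken as pairs. With the replicate block, 3 genes (Synm, Gfap and Nes) were called between traced astrocyte lines, and Nes in the hippocampal line passed (-0.22, limma, adjusted p = 0.0084). Depth is unknown.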

Other observations

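Markers of ependymal cells, the ciliated cells that line the ventricles and the central canal, had higher values in astrocytes. Of the 6 listed, 4 were found and tested over all lines, with a median log2 change of 1.87 against 0.021 over all genes. Dnah5 and Ccdc153 did not reach the filter among NSCs and were tested only through astrocytes, so the list is given as a description. The summed level of the 4 was 9.46 to 9.79 in tdTomato NSCs and 12.2 to 12.3 in hippocampal astrocytes, the lowest and highest of the 6 groups. Foxj1, the regulator of motile cilia genes, had means of 10.1 in NSCs and 11.5 in astrocytes (log2 change 1.45, SE 0.11, limma, adjusted p = 1.33e-09). Of the oligodendrocyte lineage genes, Olig2 and Cspg4, genes of oligodendrocyte progenitors, fell by 2.01 (SE 0.085) and 1.49 (SE 0.062) on the log2 scale (limma, adjusted p = 2.67e-13 and 2.09e-13).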
